A study of Schizosaccharomyces pombe with 3 samples.

Results

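Introns of the genes for the respiratory chain, the F-type ATP synthase and the vacuolar ATPase (V-ATPase) of fission yeast were followed through inhibition of the kinase Prp4. They were chosen by gene symbol: the *cox*, *qcr* and *atp* genes, the *vma* and *vph* genes, and *cyt1*, *sdh1* and *tim11*. The symbols *cyc1*, *rip1*, *inh1*, *sdh2* to *sdh4*, *nde1*, *nde2*, *ndi1* and *aco* belonged to the rule and matched no row of the table. The rule found 108 junctions in 45 genes, out of 5368 junctions in 2546 genes. Of these, 42 belonged to the respiratory chain (17 genes), 24 to the ATP synthase (14 genes) and 42 to the V-ATPase (14 genes).

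All cells carried *prp4-as2*, a conditional allele whose kinase is blocked by the ATP analogue 1NM-PP1, and were grown in EMM medium. RNA was sequenced from cells left untreated (0 min) and from cells exposed to 1NM-PP1 for 30 min and for 60 min. Each condition had 1 library, so no spread between cultures is known, no p-value was computed, and every difference compares single libraries. All 3 libraries came from the mutant strain, and cells with an unaltered kinase exposed to 1NM-PP1 are not analysed here, so that loss of Prp4 activity cannot be told apart from any other effect of the compound.

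At each 5’ SS, split reads join exon to exon and count spliced RNA, whereas unsplit reads run on into the intron and count unspliced RNA. Their ratio, each count raised by 1, gives on the log2 scale the Relative Splicing Efficiency Index (RSEI), so a negative RSEI means that unspliced RNA prevailed. The unspliced share is the percentage of unsplit reads among all reads of a junction, given with its exact (Clopper-Pearson) 95% binomial interval. The intervals cover counting error only, since PCR copies of a molecule were not told apart. There were 910440 junction reads at 0 min, 852562 at 30 min and 743457 at 60 min, and the members took 41788, 41446 and 35015 of them. An intron was kept when it had more than 10 reads in every library and a positive RSEI in untreated cells, which left 102 member introns in 44 genes and 4171 introns in 2122 genes over the whole table.

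The respiratory chain passes electrons from succinate and NADH through complex III and complex IV to oxygen and pumps protons across the inner mitochondrial membrane. The ATP synthase lets these protons flow back through its membrane part, Fo, and makes ATP in its head, F1. The V-ATPase works the other way round: its V1 domain hydrolyses ATP and its membrane domain Vo pumps protons into the vacuole. The chain and the ATP synthase have subunits encoded in the mitochondrial genome as well as in the nucleus, and all 3 complexes need dedicated assembly factors.

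The introns that differed most are shown first, each with the last 3 bases of the exon and the whole intron from 5’ to 3’, from the RefSeq genome sequence, build ASM294v3. Capitals mark bases -3 to +6 around the 5’ SS, where snRNA U1 pairs, and a pentamer that fits the branch sequence, that is a pyrimidine, T, any base, A and a pyrimidine, the nearest to the 3’ SS within the last 40 nt. The pentamer was placed by its letters alone and marks no mapped branch point. In the intron of *atp3* and in *vma8* I its A lies 3 and 4 nt before the end of the intron. The following introns had among the most negative RSEI at 30 min in their complex, or crossed 0 within a gene whose other introns did not.
*cox8* III, chrI:3042818-3042871, minus strand: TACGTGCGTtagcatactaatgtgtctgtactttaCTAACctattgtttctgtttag
*cox20* I, chrII:3253068-3253133, minus strand: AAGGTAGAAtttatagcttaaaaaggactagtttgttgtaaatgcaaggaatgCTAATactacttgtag
*qcr10* III, chrII:2884581-2884630, plus strand: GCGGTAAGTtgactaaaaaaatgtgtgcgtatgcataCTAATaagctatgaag
*atp14* III, chrII:2057359-2057410, minus strand: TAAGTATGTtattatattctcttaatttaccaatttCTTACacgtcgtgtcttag
*vma8* I, chrIII:2285114-2285153, plus strand: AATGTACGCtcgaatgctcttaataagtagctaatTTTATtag
*vma13* III, chrI:2621726-2621775, minus strand: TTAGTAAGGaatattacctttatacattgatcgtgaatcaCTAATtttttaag
The next introns stayed mostly spliced at 30 min. *qcr10* IV, *atp14* I and *vma13* II lie in the same genes as introns above, and *atp3* I and *vma2* I had the highest RSEI of the ATP synthase and the V-ATPase.
*qcr10* IV, chrII:2884681-2884724, plus strand: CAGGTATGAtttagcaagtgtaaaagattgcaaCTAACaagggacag
*atp14* I, chrII:2057541-2057587, minus strand: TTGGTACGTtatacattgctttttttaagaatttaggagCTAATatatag
*vma13* II, chrI:2621879-2621931, minus strand: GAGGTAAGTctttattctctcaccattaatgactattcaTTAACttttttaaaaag
*atp3* I, chrII:1086016-1086094, plus strand: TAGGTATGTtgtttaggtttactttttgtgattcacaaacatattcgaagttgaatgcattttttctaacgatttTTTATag
*vma2* I, chrI:4548747-4548787, minus strand: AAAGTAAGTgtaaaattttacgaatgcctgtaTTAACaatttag
A further pair shows introns that were well spliced before inhibition, fell far, and have a 5’ SS close to the U1 consensus. *qcr9* I had the largest fall of all members, and *cox7* II is the member whose 9 bases all match the U1 consensus.
*qcr9* I, chrIII:371287-371352, plus strand: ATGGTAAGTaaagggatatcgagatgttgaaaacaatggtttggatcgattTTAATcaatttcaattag
*cox7* II, chrII:1715304-1715370, minus strand: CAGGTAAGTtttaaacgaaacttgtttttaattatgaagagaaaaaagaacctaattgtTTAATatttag

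After 30 min with 1NM-PP1 the unspliced share of most members was higher than before, and a smaller share of them crossed to a negative RSEI than of all kept introns. The median RSEI of the 102 kept member introns was 4.39, 1.59 and 2.18 at 0, 30 and 60 min, against 3.58, 0.66 and 1.57 for all kept introns. Unspliced RNA prevailed at 30 min, with a RSEI below 0, in 25 of 102 member introns (24.5%), where 37.6% of all kept introns were negative. At 60 min the RSEI was negative in 16 members, beside 24.2% of all kept introns. The fall itself was much the same, with a median change of -3.0 in the members and -2.92 over all kept introns from 0 to 30 min. The unspliced share was higher at 30 min than in untreated cells, with 95% intervals apart, in 81 of 102 members, against 70.3% of all kept introns. It was lower with intervals apart in none of the members and in none of all kept introns. At 60 min the share still exceeded the untreated share, with intervals apart, in 66 members, beside 51.6% of all kept introns. The width of these intervals depends on the number of reads, at 30 min a median of 273 in members and 83 in all kept introns. The part of depth in these counts was not tested.

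The number of reads and the untreated RSEI moved with the count of negative introns. The median member had 323.5 reads in untreated cells, against 85 for the median kept intron. Among introns with 300 or more untreated reads, 8 of 52 members (15.4%) were negative at 30 min, the same share as among all 609 kept introns of that depth (94, 15.4%). With 100 to 299 reads it was 7 of 30 members, beside 33.1% of all kept introns, and under 100 reads 10 of 20, beside 45.9%. An untreated RSEI under 3 was followed by a negative value at 30 min in 14 of 17 members, and one of 4.5 or more in 2 of 49. Over all kept introns these shares were 69.1% and 10.6%. The part of depth and of untreated RSEI in the lower share of negative members was not tested.

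**Figure D1:**
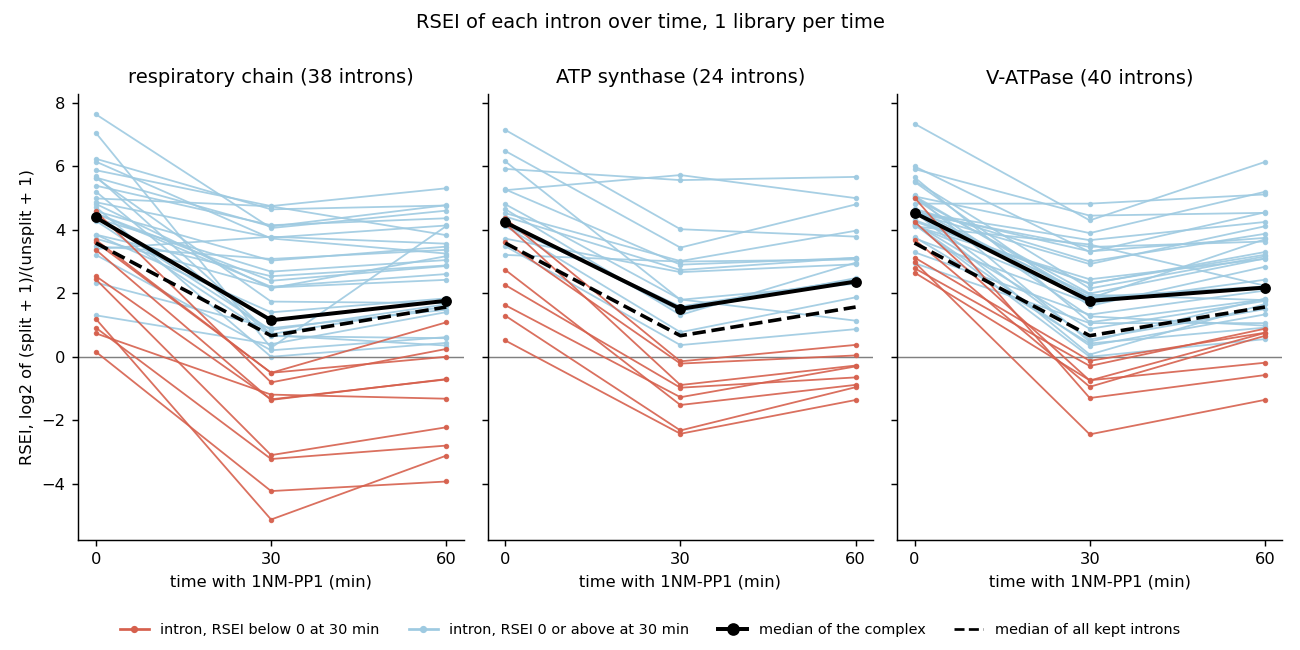
RSEI (log2, vertical axis) of each kept member intron against the time with 1NM-PP1 in min, in 3 panels for the complexes, with 1 library per time. Red lines are introns below 0 at 30 min, blue lines the others, the black line is the median of the complex and the dashed line the median of all 4171 kept introns; the medians of the complexes stay above the dashed line at every time.

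At 30 min 10 of 38 respiratory chain introns, 8 of 24 ATP synthase introns and 7 of 40 V-ATPase introns had a negative RSEI. Without the assembly factors these counts were 6 of 34 (17.6%), 5 of 20 (25%) and 6 of 37 (16.2%), so that the respiratory chain and the V-ATPase lay close together. The median RSEI at 0, 30 and 60 min was 4.39, 1.151 and 1.76 in the respiratory chain, 4.24, 1.51 and 2.37 in the ATP synthase, and 4.54, 1.76 and 2.18 in the V-ATPase. With pooled reads, where deeply read introns weigh more, the V-ATPase had the highest unspliced share at 30 and 60 min. At 60 min its interval (19.7 to 21.2) overlapped that of the ATP synthase (18.7 to 20.4). The pooled unspliced share was 5.19%, 19.6% and 15.5% in the respiratory chain at 0, 30 and 60 min, 4.60%, 26.0% and 19.5% in the ATP synthase, and 4.37%, 28.9% and 20.5% in the V-ATPase. Over all kept introns it was 6.10%, 28.4% and 21.4%. In the respiratory chain *qcr6* alone gave 7856 of the 18232 reads at 30 min, with 13.0% unspliced. The order of the complexes therefore depended on whether introns or reads were weighted equally. Of the 25 negative introns, 19 had a 95% interval of the unspliced share that lay above 50% at 30 min, or 19 of 102 members beside 25.4% of all kept introns. In 13 members the interval included 50%, beside 25.6% of all kept introns, and the width of an interval follows the number of reads.

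**Figure D2:**
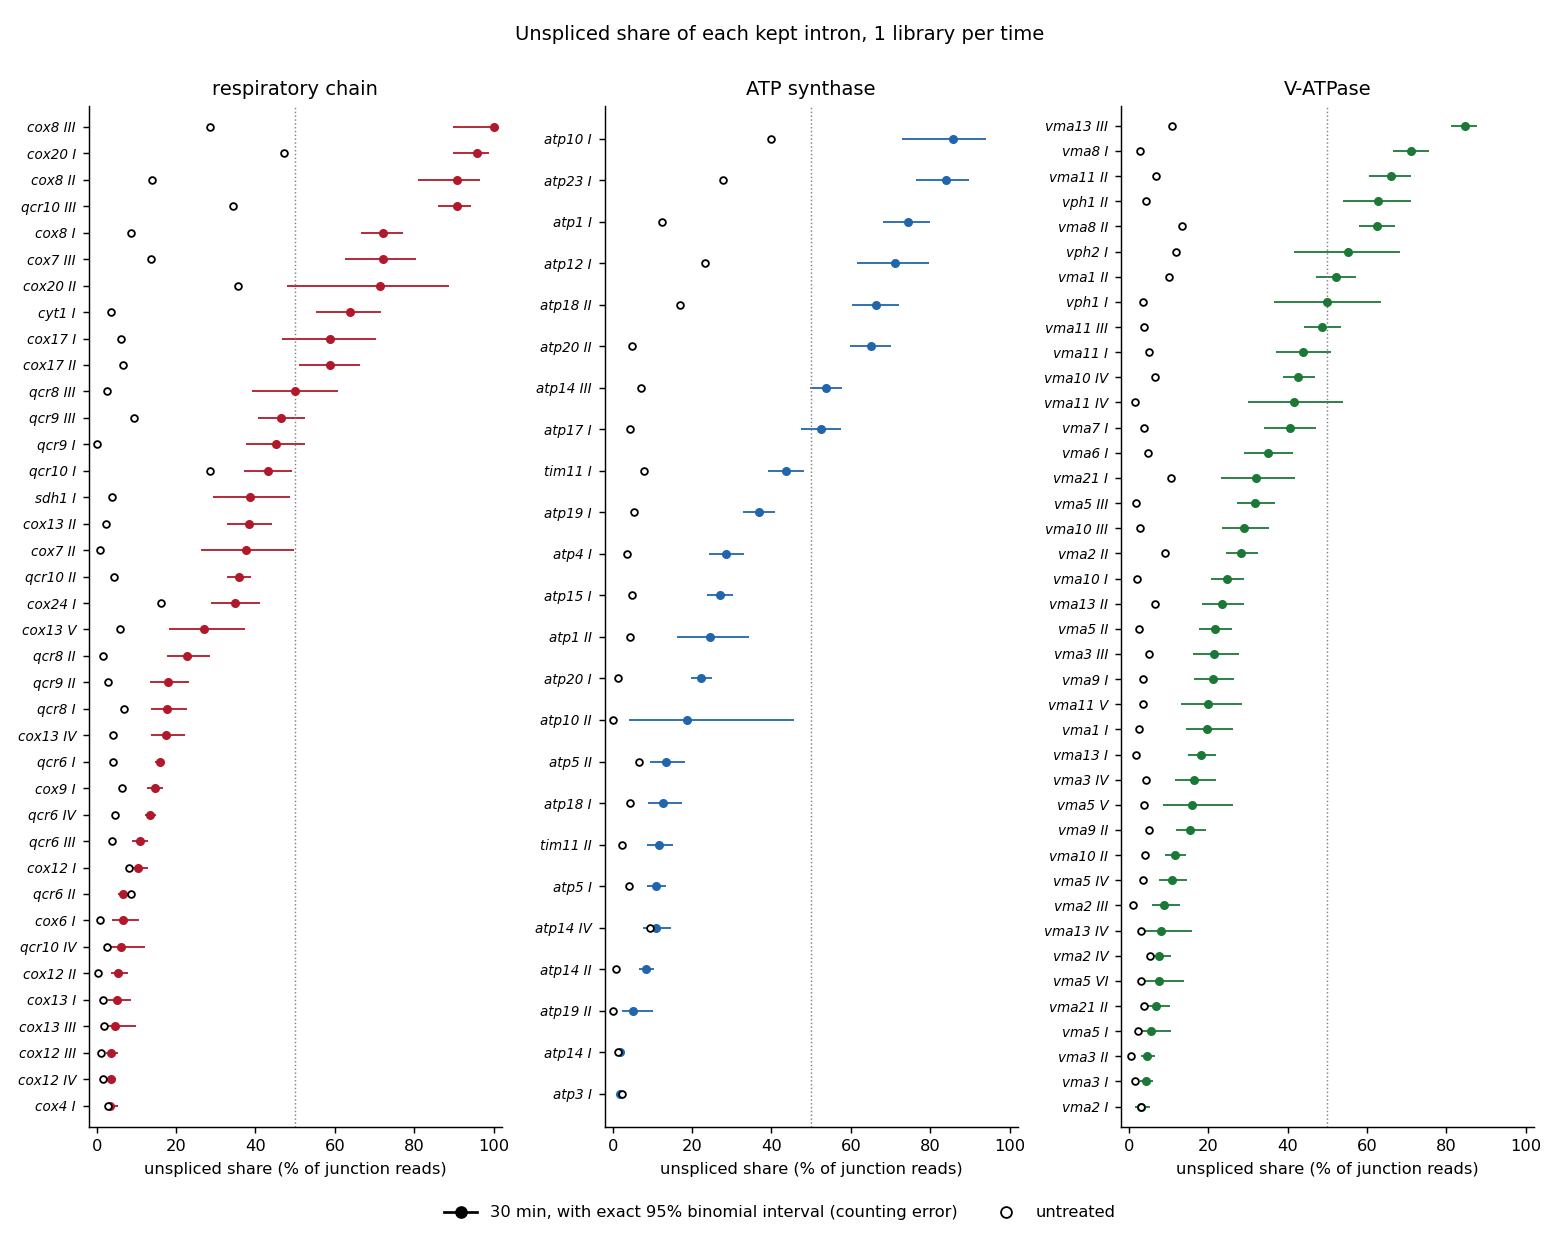
Unspliced share (% of junction reads, horizontal axis) of each kept member intron at 30 min, as filled points with the exact 95% binomial interval, and in untreated cells, as open circles, in 1 panel per complex. The dotted line marks 50%; the 25 introns to its right carry more unspliced than spliced RNA at 30 min, and only *atp3* I and *qcr6* II lie to the left of their untreated point.

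Complex II was represented by *sdh1* alone, which encodes the flavoprotein subunit of succinate dehydrogenase. Its intron had 77 split and 3 unsplit reads before inhibition, 65 and 41 at 30 min, and 29 and 19 at 60 min, or a RSEI of 4.29, 0.65 and 0.58. The unspliced share rose to 38.7% (29.4 to 48.6) at 30 min, against 3.75% (0.78 to 10.6) in untreated cells, and was 39.6% at 60 min.

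Complex III, which hands electrons from ubiquinol to cytochrome c, contributed 15 introns in 5 genes, of which 2 were negative at 30 min. They were the single intron of *cyt1*, the gene of cytochrome c1, and *qcr10* III, in the gene of a small subunit. In *cyt1* the reads were 238 split and 9 unsplit at 0 min, 51 and 90 at 30 min, and 50 and 42 at 60 min. Its RSEI was 4.58, -0.81 and 0.25 at 0, 30 and 60 min, and the share of 45.7% (35.2 to 56.4) at 60 min had an interval that included 50%. In *qcr10* III the reads were 48 split and 25 unsplit at 0 min, 20 and 195 at 30 min, and 24 and 173 at 60 min. The unspliced share rose to 90.7% (86.0 to 94.2) at 30 min, against 34.2% (23.5 to 46.3) in untreated cells, where the intron was thus already poorly spliced.

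The 4 introns of *qcr10* behaved apart from each other. From 5’ to 3’ their RSEI at 30 min was 0.40, 0.84, -3.22 and 3.75. Intron IV, shown above, lies downstream of intron III and had 107 split and 7 unsplit reads at 30 min, with an unspliced share of 6.14% (2.50 to 12.2), against 2.52% (0.523 to 7.19) in untreated cells. The 2 introns had the same number of bases pairing with U1, 7 of 9. The unspliced share of intron I was 28.6% (22.4 to 35.4), 43.1% and 27.1% at 0, 30 and 60 min, and it fell between 30 and 60 min with intervals apart.

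In *qcr9*, which encodes another small subunit of complex III, intron I had the largest fall of the RSEI of all members and the largest rise afterwards. It had 132 split and 0 unsplit reads before inhibition, 100 and 82 at 30 min, and 86 and 4 at 60 min, or a RSEI of 7.06, 0.28 and 4.12. The unspliced share was 0% (0 to 2.76) at 0 min, 45.1% (37.7 to 52.6) at 30 min and 4.44% (1.22 to 11) at 60 min. At 60 min 4 unsplit reads of this intron were left, whereas intron III of the same gene kept an unspliced share of 46.5% at 30 min and 39.3% at 60 min. The RSEI of *qcr9* I, II and III at 30 min was 0.28, 2.16 and 0.20.

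The other complex III introns remained positive or reached 0. The 4 introns of *qcr6*, which encodes a further complex III subunit and was the most deeply read gene among the members with 7856 junction reads at 30 min against 7589 in untreated cells, had a RSEI of 2.39, 3.78, 3.03 and 2.68 at 30 min. Intron I lies in the 5’ UTR. *qcr6* II had 1170 split and 84 unsplit reads at 30 min, against 1063 and 100 in untreated cells, a share of 6.70% (5.38 to 8.23) against 8.60% (7.05 to 10.4), and these intervals overlap. The 3 introns of *qcr8*, another subunit gene, had 2.18, 1.74 and 0.00 at 30 min. In *qcr8* III, 44 split and 44 unsplit reads gave exactly 0, against 78 and 2 in untreated cells.

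Complex IV, cytochrome c oxidase, reduces oxygen to water, and its subunit genes had 17 kept introns in 7 genes, 4 of them negative at 30 min. These were the 3 introns of *cox8* and *cox7* III. In *cox8*, the gene of subunit VIII, the RSEI along the gene was -1.36, -3.10 and -5.13 at 30 min, and 3.37, 2.44 and 1.19 in untreated cells. Intron III had 15 split and 6 unsplit reads before inhibition, 0 and 34 at 30 min, and 2 and 25 at 60 min. With no spliced read at 30 min, its unspliced share was 100% (89.7 to 100), against 28.6% (11.3 to 52.2) in untreated cells. Intron II had 37 and 6 reads at 0 min, 6 and 59 at 30 min, and 8 and 41 at 60 min, and intron I had 320 and 30, 80 and 207, and 69 and 113. At 30 min the gene had the highest unspliced share of the complex IV subunits, 77.7% over its introns, and all 3 introns were still negative at 60 min. Because the reads are counted per junction, the number of molecules with more than 1 intron retained is not known.

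In *cox7*, which encodes subunit VII, the kept rows cover introns II and III of 3 annotated introns. The RSEI of intron II was 5.69, 0.72 and 1.58 at 0, 30 and 60 min, and its 5’ SS pairs with U1 at all 9 positions. That of intron III was 2.54, -1.34 and -0.71, with 29 split and 75 unsplit reads at 30 min against 63 and 10 in untreated cells.

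At the other end stood *cox12* and *cox4*, encoding subunits VIb and IV. The 4 introns of *cox12* had a RSEI of 3.08, 4.06, 4.65 and 4.75 at 30 min. *cox12* IV had 994 split and 36 unsplit reads at 30 min, against 882 and 14 in untreated cells. The intron of *cox4*, 355 nt long, had 444 and 13 reads at 0 min, 507 and 18 at 30 min, and 412 and 28 at 60 min. Its RSEI was 4.99, 4.74 and 3.83, lower at 60 min than at 30 min, with intervals that overlap at all times. The single introns of *cox6* and *cox9*, encoding subunits VI and VIIa, had 3.73 and 2.54 at 30 min. The unspliced share of *cox6* was 0.935% at 0 min, 6.64% at 30 min and 9.04% at 60 min.

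*cox13*, the gene of subunit VIa, had 5 kept introns with a RSEI of 4.11, 0.68, 4.15, 2.21 and 1.40 at 30 min. Intron II stood apart from its neighbours: 191 split and 119 unsplit reads at 30 min gave a share of 38.4% (32.9 to 44.1), against 2.36% (1.02 to 4.60) in untreated cells, and the share was 43.9% (37.8 to 50.02) at 60 min. Introns I and III on either side had 5.14% and 4.65% unspliced reads at 30 min. Intron II had 4 bases that pair with U1, the fewest of all members.

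Symbol and annotation did not match for *cox24*, which RefSeq describes as mS38, a protein of the mitochondrial ribosome. Its intron had a RSEI of 2.34, 0.90 and 1.48 at 0, 30 and 60 min and is counted with the respiratory chain by its symbol only. The mitochondrially encoded *cox1* had 4 rows, all with 0 reads in the 3 libraries, and could not be followed.

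The assembly factors of complex IV were poorly spliced under inhibition. *cox17* encodes the copper chaperone of cytochrome c oxidase, and *cox20* a membrane protein that in budding yeast accompanies the subunit Cox2. All 4 of their introns were negative at 30 min. *cox20* I had 38 split and 34 unsplit reads before inhibition, 4 and 93 at 30 min, and 3 and 60 at 60 min. Its RSEI was 0.16, -4.23 and -3.93, so this intron was the least spliced of all kept members before 1NM-PP1. *cox20* II had 21 reads at 30 min and 14 in untreated cells, a RSEI of -1.19 at 30 min, and intervals that overlap with those of untreated cells. *cox17* I and II had a RSEI of -0.51 and -0.51 at 30 min, against 3.61 and 3.68 in untreated cells. At 60 min *cox17* II had returned to 1.09, with 86 split and 40 unsplit reads against 68 and 97 at 30 min, whereas *cox17* I had 23 split and 23 unsplit reads.

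In the F1 head of the ATP synthase 1 of 4 introns was negative at 30 min. It was *atp1* I, in the gene of the alpha subunit, with 126 split and 18 unsplit reads before inhibition, 59 and 171 at 30 min, and 58 and 108 at 60 min. The neighbouring *atp1* II had a RSEI of 1.58 at 30 min. *atp15*, the gene of the epsilon subunit, had 1.43.

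The intron of *atp3*, the gene of the gamma subunit that turns inside the head, had the highest RSEI of all members at 30 min. Its reads were 874 split and 22 unsplit before inhibition, 952 and 17 at 30 min, and 767 and 23 at 60 min. The RSEI was 5.25, 5.73 and 5.0, and the unspliced share 2.46% (1.55 to 3.69), 1.75% (1.03 to 2.79) and 2.91% (1.85 to 4.34). *atp3* I and *qcr6* II were the exceptions to the lower RSEI at 30 min found in the other 100 members, and neither change exceeded its counting error. Over the whole table the RSEI was lower at 30 min in 4064 of the 4171 kept introns.

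Fo and the stalks, which carry protons and hold the head in place, had 16 introns in 8 genes, of which *atp14* III, *atp17* I, *atp18* II and *atp20* II were negative at 30 min. *atp20* encodes subunit G. Its intron II had the largest fall of the ATP synthase, with 348 split and 18 unsplit reads before inhibition, 122 and 227 at 30 min, and 108 and 131 at 60 min. The RSEI was 4.20, -0.89 and -0.28. *atp20* I remained positive, with 1.80 at 30 min against 6.16 in untreated cells, a fall of the RSEI by 4.36. The single intron of *atp17*, the gene of subunit F, had 4.36, -0.14 and 0.37, and its share of 52.5% (47.3 to 57.6) at 30 min included 50%.

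*atp14*, the gene of subunit H, had 4 introns, and 1 of them crossed 0. The RSEI was 5.57, 3.44, -0.21 and 3.0 at 30 min from 5’ to 3’, and 5.92, 6.49, 3.62 and 3.21 in untreated cells. Intron III had 273 split and 317 unsplit reads at 30 min against 270 and 21 in untreated cells, so its split reads were kept while the unsplit reads increased. Intron I had 805 split and 16 unsplit reads at 30 min, a share of 1.95% (1.12 to 3.15), against 1.45% (0.628 to 2.84). Intron IV had 10.9% (7.69 to 14.8) at 30 min, against 9.51% (6.55 to 13.2). Introns I and IV thus showed no change beyond counting error, next to intron III with 53.7% (49.6 to 57.8) against 7.22% (4.52 to 10.8). The number of bases that pair with U1 was 6, 5, 6 and 5 in introns I to IV, so that the intron that crossed 0 and the best spliced one had the same number.

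Apart from the 4 introns named above, the Fo introns were positive at 30 min. *atp19* II had 145 split and 8 unsplit reads at 30 min, against 141 and 0 in untreated cells, a share of 5.23% (2.28 to 10.04) against 0% (0 to 2.58). *atp4*, encoding a stator stalk subunit, had the largest rise of the RSEI from 30 to 60 min in the ATP synthase. Its RSEI was 4.65, 1.32 and 2.96, and the unspliced share 3.66%, 28.5% and 11.1%. *atp23* I and *atp14* II followed with a rise of 1.36 each, the first to -0.96 and the second to 4.80 at 60 min. The introns of *atp5*, which encodes the delta subunit, had 3.02 and 2.67 at 30 min, and those of *tim11*, which encodes subunit E, 0.37 and 2.90. In *atp18*, the gene of subunit J, intron I had 2.73, next to -0.97 in intron II.

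The assembly factors of the ATP synthase were again low. Atp10 is known from budding yeast to act in the assembly of Fo, Atp12 is a chaperone of F1, and Atp23 is a peptidase. *atp10* I had 9 split and 6 unsplit reads before inhibition, 7 and 42 at 30 min, and 6 and 17 at 60 min, with the lowest RSEI of the complex, -2.43, at 30 min. *atp23* had 26 and 10, 21 and 109, and 17 and 34 reads and a RSEI of 1.30, -2.32 and -0.96. *atp12* had 33 and 10, 30 and 74, and 33 and 41 reads and a RSEI of 1.63, -1.27 and -0.30. In these 3 introns the split reads at 30 min numbered 7, 21 and 30, against 9, 26 and 33 in untreated cells, so the change lay in the unsplit reads. *atp10* II had 13 split and 3 unsplit reads at 30 min against 27 and 0 in untreated cells, and the intervals overlap.

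**Figure D3:**
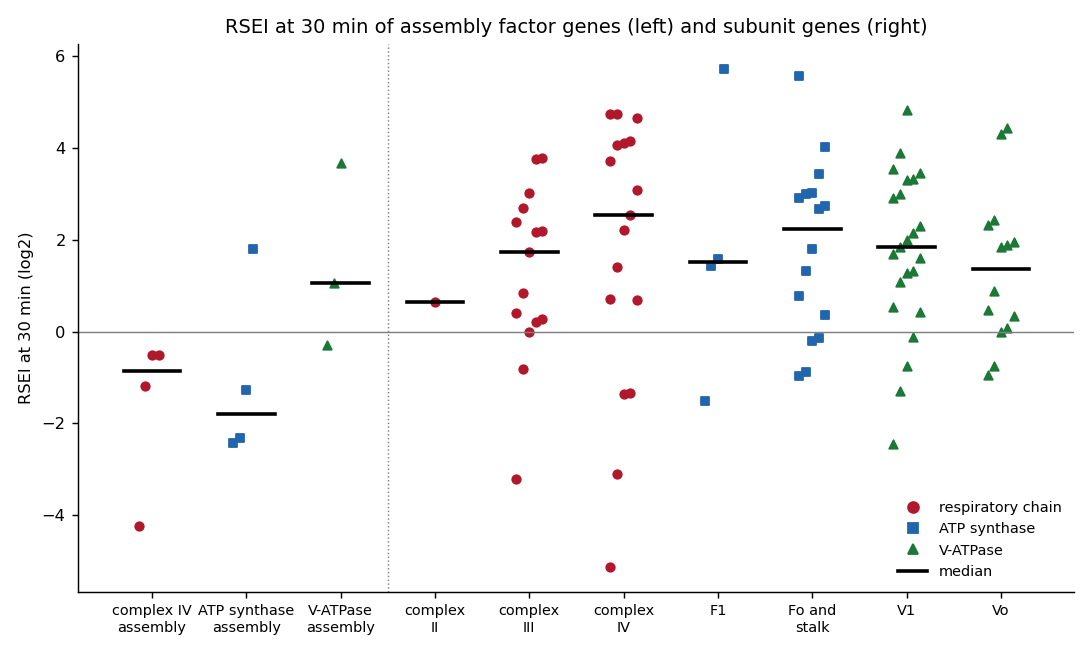
RSEI at 30 min (log2, vertical axis) of each kept member intron, grouped by role, with assembly factor genes left of the dotted line and subunit genes right of it; bars are medians and *cox24* is not drawn. Of 11 introns in assembly factor genes 8 lie below 0, against 17 of 90 in subunit genes.

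Over the 3 complexes, introns of assembly factor genes were more often negative at 30 min than introns of subunit genes, 8 of 11 (7 genes) against 17 of 90 (36 genes), beside 37.6% of all kept introns. Their median RSEI was 2.79, -0.51 and 0.00 at 0, 30 and 60 min in assembly factors and 4.52, 1.82 and 2.43 in subunits. The median change to 30 min was -3.0 in assembly factors and -3.01 in subunits, but it differed within complexes. In complex IV it was -4.15 in assembly factors and -2.42 in subunits. In the V-ATPase it was -1.89 in assembly factors, -3.01 in V1 and -3.18 in Vo. In the ATP synthase it was -2.97 in assembly factors, -2.70 in F1 and -3.12 in Fo and the stalks. The starting level differed too, with a pooled unspliced share of 12.5% in assembly factors and 4.55% in subunits before inhibition. Assembly factors were also read less deeply, with a median of 64 untreated reads against 365. Under 100 reads, 6 of 8 introns of assembly factors and 4 of 12 of subunits were negative. With an untreated RSEI under 3 it was 6 of 7 and 8 of 9. The part of depth and of the untreated RSEI in this difference was not tested.

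In the V-ATPase, 4 of 23 introns of the V1 domain were negative at 30 min, in *vma1*, *vma8* and *vma13*. *vma8* encodes subunit D of the rotor, and both its introns crossed 0. Intron I had 354 split and 10 unsplit reads before inhibition, 116 and 287 at 30 min, and 121 and 181 at 60 min. Its RSEI was 5.01, -1.30 and -0.58, the largest fall of the complex. Intron II had 2.65, -0.74 and -0.19, with 176 split and 295 unsplit reads at 30 min against 257 and 40 in untreated cells. Intron II pairs with U1 at 8 of 9 positions and intron I at 5.

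*vma13* encodes subunit H, which is known to regulate the coupling of V1 to Vo. Its 4 kept introns had a RSEI of 2.15, 1.69, -2.45 and 3.32 at 30 min. Intron III had 339 split and 42 unsplit reads before inhibition, 75 and 413 at 30 min, and 118 and 304 at 60 min. The unspliced share was 11% (8.06 to 14.6), 84.6% (81.1 to 87.7) and 72.0% (67.5 to 76.3), the highest of the V-ATPase at 30 min. Intron II, upstream of it, had 23.5% (18.6 to 29.0) at 30 min against 6.61% (3.75 to 10.7), and intron IV, downstream, 8.14% (3.34 to 16.1) against 3.06% (0.636 to 8.69). Intron III pairs with U1 at 5 positions, introns II and IV at 8, and intron I at 5. Intron V was not kept, because its RSEI was already negative in untreated cells: the 7 split and 9 unsplit reads at 0 min, 6 and 15 at 30 min, and 5 and 11 at 60 min gave -0.32, -1.19 and -1.0.

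In *vma1*, encoding the catalytic subunit A, intron II had a RSEI of 3.13, -0.13 and 0.76 and intron I of 5.0, 1.99 and 3.10. The share of intron II at 30 min, 52.2% (47.1 to 57.3), included 50%. *vma2* encodes subunit B, and its introns had 4.83, 1.33, 3.30 and 3.54 at 30 min. *vma2* I, with 396 split and 13 unsplit reads at 30 min against 311 and 10 in untreated cells, had an unspliced share of 3.18% (1.70 to 5.37) at 30 min against 3.12% (1.5 to 5.65). *vma2* IV was the member whose unspliced share was higher at 60 min than at 30 min with intervals apart, at 17.2% (12.7 to 22.5) against 7.74% (5.48 to 10.6), as was the case in 0.24% of all kept introns. Its reads at 60 min were 202 split and 42 unsplit, against 429 and 36 at 30 min.

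*vma5*, the gene of subunit C, had 6 introns, the most of any member, and none was negative. Their RSEI at 30 min was 3.90, 1.84, 1.09, 3.0, 2.30 and 3.46. *vma5* II had 314 split and 87 unsplit reads at 30 min and 351 and 26 at 60 min, the largest rise of the RSEI in the V-ATPase. *vma10*, the gene of the stalk subunit G, had 1.60, 2.92, 1.27 and 0.42 at 30 min. At 60 min *vma10* I and II had recovered with intervals apart, whereas *vma10* III had 33.5% unspliced reads against 29.1% at 30 min, with intervals that overlap. *vma7*, encoding subunit F, had 136 split and 93 unsplit reads at 30 min, against 460 and 18 in untreated cells.

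In the Vo domain, the proton-conducting part, *vma11* II and *vph1* II were negative at 30 min and none was negative at 60 min. *vma11* and *vma3* both encode proteolipid subunits of the rotor ring. The RSEI of *vma11* at 30 min was 0.35, -0.95, 0.07, 0.47 and 1.95, and that of *vma3* was 4.45, 4.30, 1.84 and 2.31. Over all introns, the unspliced share was 49.4% in *vma11* at 30 min against 4.82% in untreated cells, and 8.06% in *vma3* against 1.94%. The ring genes therefore differed by far more than the counting error, with intervals of 46.5 to 52.3 and 6.82 to 9.44 at 30 min. *vma11* II had 387 split and 29 unsplit reads before inhibition, 110 and 213 at 30 min, and 176 and 111 at 60 min, so it turned positive again. *vma3* II had 811 and 4, 609 and 30, and 563 and 7 reads, or a RSEI of 7.34, 4.30 and 6.14.

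*vph1* encodes the large membrane subunit a, through which protons pass. Its intron II had 133 split and 6 unsplit reads before inhibition, 49 and 83 at 30 min, and 68 and 40 at 60 min, or a RSEI of 4.26, -0.75 and 0.75. Intron I had 29 split and 29 unsplit reads at 30 min. The intron of *vma6*, encoding subunit d, had 4.20, 0.88 and 1.76, and *vma9* I and II, in the gene of subunit e, had 1.88 and 2.44 at 30 min. *vma9* III, a 40-nt intron in the 3’ UTR, was the other nuclear member with a negative RSEI before inhibition, -1.65, -2.35 and -2.84 at 0, 30 and 60 min, with 127 split and 402 unsplit reads, 100 and 514, and 56 and 408. A larger share of this junction was unspliced at 60 min, 87.9% (84.6 to 90.8), than in untreated cells, 76.0% (72.1 to 79.6).

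The V-ATPase assembly factors Vma21 and Vph2 are, in budding yeast, proteins of the endoplasmic reticulum. *vph2* had 96 split and 13 unsplit reads before inhibition, 26 and 32 at 30 min, and 47 and 25 at 60 min, a RSEI of 2.79, -0.29 and 0.88. The interval of its unspliced share at 30 min, 55.2% (41.5 to 68.3), included 50%. *vma21* I had 2.95, 1.06 and 1.06 and *vma21* II had 4.56, 3.67 and 4.25.

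**Figure D4:**
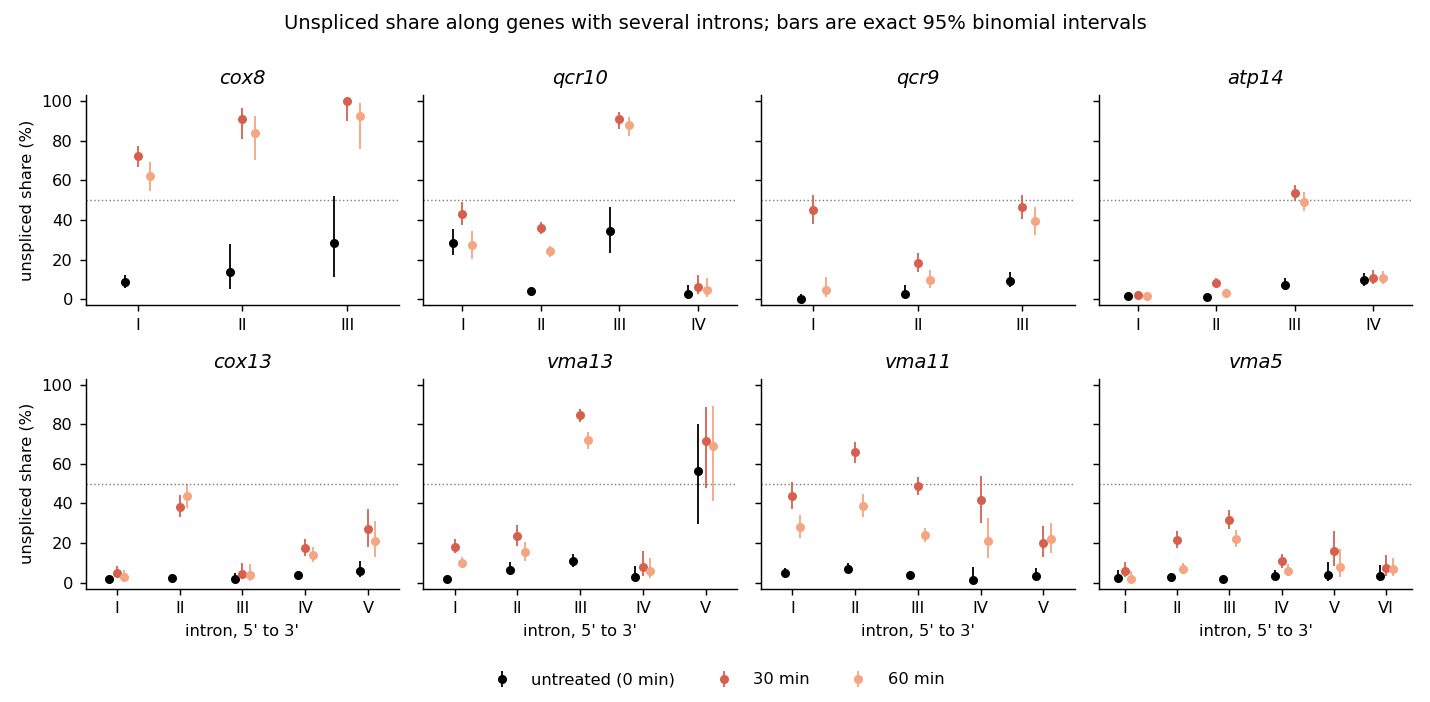
Unspliced share (% of junction reads, vertical axis) of each intron, numbered from 5’ to 3’, in 8 member genes with several introns, at 0 min (black), 30 min (red) and 60 min (orange), with exact 95% binomial intervals; the dotted line marks 50%. *qcr10* III, *atp14* III, *cox13* II and *vma13* III stand above their neighbours in the same transcript at 30 min.

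Of the 29 member genes with several kept introns, 10 (34.5%) had introns on either side of 0 at 30 min, against 46.7% of the 1098 such genes in the whole table. In *vph1* intron II was negative and intron I at 0. A further 4 genes had negative introns only (*cox8*, *cox17*, *cox20* and *vma8*) and 14 had none. Genes with introns on either side of 0 numbered 2 of 10 (20%) in the respiratory chain, 5 of 8 (62.5%) in the ATP synthase and 3 of 11 (27.3%) in the V-ATPase. By position, 9 of 27 last introns, 6 of 28 first introns, 5 of 32 introns in between and 5 of 15 single introns were negative, beside 36.7%, 39.1%, 39.7% and 34.4% of all kept introns at these positions.

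From 30 to 60 min a recovery was counted in a larger share of V-ATPase introns than of mitochondrial ones, a difference that single libraries do not allow to be tested. The unspliced share was lower at 60 min than at 30 min, with intervals apart, in 16 of 40 V-ATPase introns, 6 of 24 ATP synthase introns and 5 of 38 respiratory chain introns, 27 of 102 in all, beside 17.6% of all kept introns. The RSEI was higher at 60 min in 36, 21 and 31 of them, or 88 of 102 members, beside 3584 of the 4171 kept introns. The median rise was 0.87 in the V-ATPase, 0.51 in the ATP synthase and 0.44 in the respiratory chain. It was 0.57 over all members, against 0.78 over all kept introns. None of the 17 introns of complex IV subunits recovered with intervals apart, and their median rise was 0.44. The median number of reads, which bears on the width of the intervals, was 285.5 at 30 min and 268.5 at 60 min in the V-ATPase, 364 and 331.5 in the ATP synthase, and 253.5 and 197 in the respiratory chain, and its part in the difference was not tested. Over all members the median was 273 reads at 30 min and 242 at 60 min, against 83 and 73 over all kept introns. With 99% intervals 8 of 40 V-ATPase introns (20%), 4 of 24 ATP synthase introns (16.7%) and 4 of 38 respiratory chain introns (10.5%) recovered, 16 in all, beside 8.56% of all kept introns, so the V-ATPase then stood close to the ATP synthase. Of the 102 members 8 were negative at 30 min and positive at 60 min, beside 554 of the 4171 kept introns. In *cox17* II, *vma1* II, *vma11* II and *vph1* II the intervals of the 2 times were apart. In *cyt1* I, *atp14* III, *atp17* I and *vph2* I they overlap.

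Junction reads changed little over the complexes, while unsplit reads increased. They are no direct measure of the amount of RNA, since introns of the same gene could differ. Relative to the library, the reads at 30 min over untreated stood at 3.15 in *qcr10* III and 1.02 in *qcr10* IV. Scaled to the junction reads of each library, the members had 5.31-fold more unsplit reads at 30 min than in untreated cells and 0.843 of the split reads. For all kept introns these values were 4.60 and 0.756. Split and unsplit reads together stood at 1.08 in the respiratory chain, 1.14 in the ATP synthase and 0.973 in the V-ATPase. In bulk RNA scaled to the library, less RNA per cell and fewer cells with that RNA cannot be told apart.

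Single genes moved further. Per gene the reads at 30 min over untreated ranged from 0.512 in *vma7* (95% counting interval 0.435 to 0.600) to 3.86 in *atp23* (2.65 to 5.74), and 30 of 44 genes (68.2%) were above 1, beside 59.4% of the 2122 genes with kept introns. *atp12* followed with 2.58 (1.79 to 3.78). Both *atp23* and *atp12* were read at 1 kept junction, so a change in the amount of RNA cannot be told from these values. Among the lowest were *atp18* at 0.540 (0.484 to 0.601), *vph2* at 0.568 (0.406 to 0.788) and *cyt1* at 0.610 (0.492 to 0.753). The unspliced share at 30 min was 83.8% in *atp23* and 71.2% in *atp12*, and 40.6% in *vma7*, 39.5% in *atp18*, 55.2% in *vph2* and 63.8% in *cyt1*. In *cyt1* the split reads were 51 at 30 min against 238 in untreated cells, whereas in *atp23* they were 21 against 26.

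**Figure D5:**
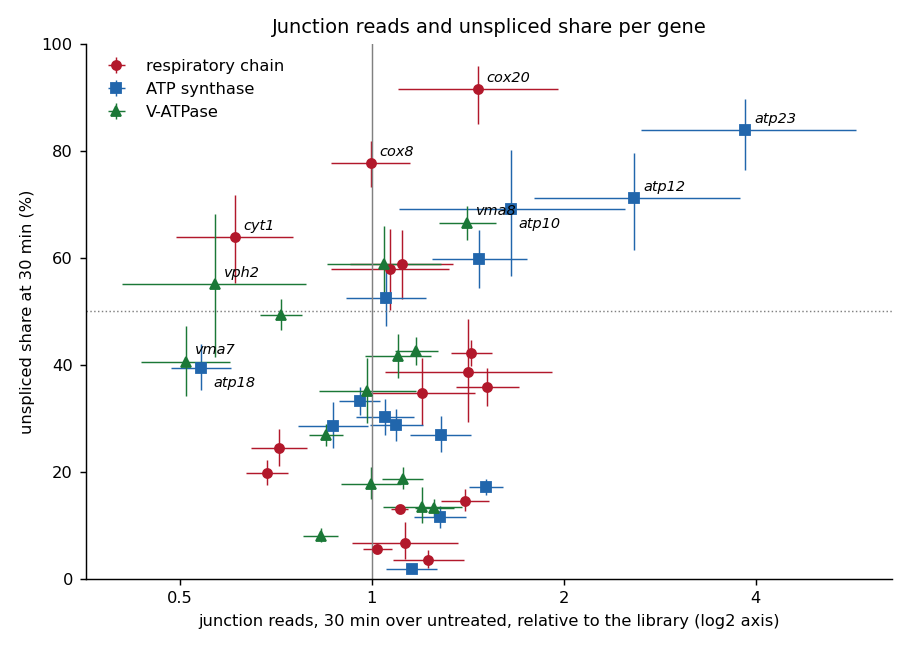
Unspliced share at 30 min (%, vertical axis) against junction reads at 30 min over untreated, relative to the library (log2 axis), for each member gene, with 95% intervals of counting error in both directions; colour and symbol give the complex. *atp23* and *atp12* lie far to the right and *vma7*, *atp18*, *vph2* and *cyt1* to the left.

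The sequence of the 5’ SS was compared between members that were negative at 30 min and the others. At bases -3 to +6 the consensus that pairs with U1 is CAGGTAAGT, written as DNA, and members matched it at 6.25 positions on average, against 6.21 over the 4156 kept introns with sequence. Of members with 4 or 5 pairs, 8 of 24 were negative at 30 min, with 6 pairs 10 of 39, with 7 pairs 6 of 28 and with 8 or 9 pairs 1 of 11. Over all kept introns the same classes gave 59.5%, 37.5%, 26.5% and 17.6%. The median RSEI at 30 min was 0.51, 1.84, 1.84 and 1.95 in these classes of members, much the same from 6 pairs on, and -0.49, 0.68, 1.28 and 1.82 over all kept introns. The negative member with 8 pairs was *vma8* II. Of the 9 positions, G at -1 was present in 10 of 25 negative members and 47 of 77 others (57.6% of all kept introns), and T at +6 in 13 of 25 and 55 of 77 (66.4%). The match at +4 was present in 10 of 25 negative members and 41 of 77 others (49.4% of all kept introns). At -3 it was 5 of 25 and 12 of 77 (16.7%), at -2 14 of 25 and 36 of 77 (48.3%), and at +5 24 of 25 and 70 of 77 (89.3%). Some of these differences rest on few introns, and none was tested. Matches were read from the letters alone. In the introns shown above, *cox8* III, *atp14* III, *vma8* I and *vma13* III lack G at -1 or T at +6, as does *cox20* I, whereas *qcr10* III has both. Of the introns that stayed mostly spliced, *vma2* I lacks G at -1 and *qcr10* IV lacks T at +6. A pentamer of the branch rule was found in all 102 members and in 99.2% of the kept introns, and CTAAC was the pentamer nearest the 3’ SS in 7 of 25 negative members and 27 of 77 others, beside 33.3% of the kept introns. The A of the pentamer lay within 4 nt of the intron end in 3 of 25 negative members and 10 of 77 others, beside 397 of the 4156 kept introns. A CTAAC further upstream, as in *atp3* I, was not counted. Median intron length was 53 nt in negative members and 55 nt in the others.

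Other genes of these pathways were followed as lists of 76 symbols, of which 24 occurred in the table and 22 had kept introns. At 30 min 12 of their 41 introns were negative, beside 37.6% of all kept introns, and 29 (70.7%) had a higher unspliced share than in untreated cells with intervals apart, near the 70.3% of all kept introns. By symbol, it was 2 of 19 in genes of the citric acid cycle and pyruvate dehydrogenase and 1 of 4 in those of ubiquinone synthesis. In assembly and biogenesis of the chain it was 6 of 11, in carriers 1 of 2, and in V-ATPase regulators 2 of 5. The negative regulator introns were *skp1* I and *rav1* I, and RefSeq describes Skp1 as a subunit of a ubiquitin ligase complex. The negative carrier intron was *pic1* I, and the other, *arh1* I, had a RSEI of 1.61. *cbs2* I and II were among the 6, and the 19 included introns of *lsc1*, none of them negative. RefSeq gives another product for *lsc1* (a cyclin), *pic1* (an INCENP-like protein) and *cbs2* (a protein kinase activator), and without these 9 of 32 introns were negative. Among the rest, *oxa101* II, in the gene of a translocase of the inner mitochondrial membrane, had 3 split and 22 unsplit reads at 30 min against 25 and 4 in untreated cells, a RSEI of -2.52 at 30 min. The lowest of the symbols with another product was *pic1* I at -2.42. The highest were *idh2* III, in a gene of isocitrate dehydrogenase, with 111 split and 4 unsplit reads at 30 min against 112 and 3 in untreated cells, and *pdx1* III, in a gene of the pyruvate dehydrogenase complex, at 4.11.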

How the data were processed

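RNA of *prp4-as2* cells was measured in 3 libraries, 1 per time. Per the labels and the study's methods, the authors made directional libraries from polyadenylated RNA, mapped the reads with TopHat, kept uniquely mapped reads and counted split and unsplit reads over 3 bases around each 5’ exon junction. SAMtools is also named in the processing notes. The deposited counts are raw and not normalized. The deposited log2 values are the RSEI, and in all 5374 lines they equal the log2 ratio after a pseudocount of 1. Of these lines 6 repeat a junction and were dropped, which left 5368. Junction reads at 0, 30 and 60 min numbered 910440, 852562 and 743457, of which 6.92%, 30.0% and 22.8% were unsplit.

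Members were matched by gene symbol, and the members and gene lists were chosen with earlier results of these data known. Introns were kept with more than 10 reads at each time and a positive RSEI at 0 min. Junctions were matched to annotated 5’ SSs of the RefSeq assembly ASM294v3 (5187 matched, among them the 104 nuclear members, all starting with GT and ending with AG). The authors mapped to an earlier annotation, so coordinates are those of the RefSeq introns, counted from 1. With 1 library per condition no test was run. Unspliced shares carry exact 95% intervals, and a change was called when the intervals did not overlap. The calls were tested on simulated data drawn with binomial counting error only, so PCR copies and spread between cultures were not covered. Folds of reads are relative to all junction reads of the library. Columns with per-sample values were all used.

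Named introns are, per complex, the 3 lowest and 3 highest RSEI at 30 min, the 3 largest falls to 30 min and rises to 60 min, every kept intron of genes with at least 3, members with a RSEI at or below 0 in untreated cells or left out by the filter, and the 2 lowest and 2 highest of the other pathway genes. The remaining names, such as those of assembly factors and of genes with the largest folds of reads, were chosen after their values were seen. Alternatives changed the read minimum, the requirement on untreated cells, the time, the interval level, the pseudocount, the scaling, the removal of assembly factors and the counting per gene. Computations used Python 3.11.15, numpy 2.4.6, pandas 2.3.3, scipy 1.17.1 and matplotlib 3.10.9.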

Additional observations from a re-analysis of the deposited data

How the results depend on the processing

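No paired analysis was possible because each condition had 1 library, so the shared number 1 leaves no second pair. Of 136 alternative values, 116 stayed within the spread or count limits set for them, 20 moved and 0 reversed. Some of them could not move, so the 116 are no measure of stability. Without the filter on reads the same 102 introns remained, and a pseudocount of 0.5 cannot change the sign of the RSEI. Counting each gene once by its summed reads gave a negative RSEI at 30 min in 13 of 44 genes, 5 of 16 in the respiratory chain, 5 of 14 in the ATP synthase and 3 of 14 in the V-ATPase, a higher unspliced share at 30 min in 42 genes (15 in the respiratory chain, 14 in the V-ATPase), a V-ATPase median of 0.71, and a recovery in 10 of 14 V-ATPase genes. These counts per gene were not made over all genes with kept introns, so no background share stands beside them and they give no result about the members. Summing changes the number of items, their weights and the width of the intervals together, and the cause of the shifts was not tested. Without assembly factors, 6 of 34 respiratory chain introns, 5 of 20 ATP synthase introns and 6 of 37 V-ATPase introns were negative. At 60 min in place of 30 min, or with both times required, 16 members and 3 V-ATPase introns were negative, and the median of all members at 60 min was 2.18. With 99% intervals 16 members recovered, 8 V-ATPase introns, 4 ATP synthase introns and 4 respiratory chain introns. Scaled by the median ratio of all kept introns, the median fold of junction reads at 30 min over untreated was 1.01 in all members, against 1.11 when scaled by the library, and 0.931 in the V-ATPase, against 1.02. The depth limits introns such as *cox20* II, with 14 reads in untreated cells, and *cox8* III, with 21.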
